A study of Mus musculus with 20 samples.

Results

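The regions described here are the places in the genome where Suz12 was detected in untreated mouse embryonic stem (ES) cells. They were taken from 4 chromatin immunoprecipitation sequencing (ChIP-seq) peak lists, 2 that opened a time course with the drug DRB and 2 that opened a time course with triptolide. All peaks of the 4 lists that overlapped by at least 1 base were merged, which gave 7004 regions, called baseline regions below. The same merge over all 8 Suz12 lists of the study gave 11943 regions, of which 5115 held no peak of an untreated list.

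All cells were wild-type E14 cells, an established mouse ES cell line, grown in medium with serum and leukemia inhibitory factor. The untreated groups carried no drug (0 h), so they differ by the experiment they belong to and not by a treatment. The treated groups used for scale had 12 h of DRB at 100 µM or 9 h of triptolide at 10 µM, which are inhibitors of transcription by RNA polymerase II. Each of these 4 groups had 2 libraries, which the series calls biological replicates. The labels do not say whether separate cultures were used, and p-values therefore measure only the spread between these libraries. The labels name no clone of the line and no measure of how many cells were undifferentiated. The study also had libraries for other targets and times; 12 of its 20 samples were not analysed here.

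Together with Eed and either methyltransferase, Ezh1 or Ezh2, Suz12 forms the core of Polycomb repressive complex 2 (PRC2). PRC2 methylates histone H3 on lysine 27, and the mark is read by PRC1 complexes. In ES cells PRC2 is known to sit at CpG islands of silent or weakly expressed genes of development, and it is largely absent from the CpG islands of highly expressed genes.

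Promoter sequences of 4 genes show the range of CG content behind the results on start sites. Each runs from 250 bases before to 50 bases after an annotated start (RefSeq, build GRCm38.p6), 5′ to 3′ on the strand of the gene, with every CG dinucleotide in capitals. Egr4, an immediate-early zinc-finger factor, had the highest Suz12 density among genes with a promoter entry. Tmem196, a membrane protein gene, had the lowest density among regions found in all 4 lists at a gene with a promoter entry. Aldoa, a glycolytic enzyme, has a CG-rich promoter and no baseline region, and Afp, the fetal liver protein alpha-fetoprotein, has few CG dinucleotides and no baseline region. The windows are chr6:85513540-85513839 on the minus strand for Egr4, chr12:119945877-119946176 on the plus strand for Tmem196, chr7:126799205-126799504 on the minus strand for Aldoa and chr5:90490464-90490763 on the plus strand for Afp.
Egr4: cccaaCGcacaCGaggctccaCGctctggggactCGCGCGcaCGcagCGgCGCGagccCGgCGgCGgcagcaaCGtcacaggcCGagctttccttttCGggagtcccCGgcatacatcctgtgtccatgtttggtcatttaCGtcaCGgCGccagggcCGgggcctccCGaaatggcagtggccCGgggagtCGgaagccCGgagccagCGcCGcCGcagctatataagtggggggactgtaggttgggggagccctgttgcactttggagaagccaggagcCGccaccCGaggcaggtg
Tmem196: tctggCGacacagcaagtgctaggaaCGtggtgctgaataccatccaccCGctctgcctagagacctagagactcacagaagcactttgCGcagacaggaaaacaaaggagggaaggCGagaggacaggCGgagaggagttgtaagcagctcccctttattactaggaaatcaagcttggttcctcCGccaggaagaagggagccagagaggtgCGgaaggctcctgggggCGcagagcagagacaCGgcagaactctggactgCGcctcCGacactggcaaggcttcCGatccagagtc
Aldoa: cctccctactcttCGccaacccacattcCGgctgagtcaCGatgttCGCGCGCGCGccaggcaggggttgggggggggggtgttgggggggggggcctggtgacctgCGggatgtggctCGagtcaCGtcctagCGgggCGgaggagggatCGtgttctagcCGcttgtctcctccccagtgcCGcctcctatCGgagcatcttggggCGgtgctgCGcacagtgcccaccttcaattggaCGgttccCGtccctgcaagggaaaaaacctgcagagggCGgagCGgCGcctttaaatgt
Afp: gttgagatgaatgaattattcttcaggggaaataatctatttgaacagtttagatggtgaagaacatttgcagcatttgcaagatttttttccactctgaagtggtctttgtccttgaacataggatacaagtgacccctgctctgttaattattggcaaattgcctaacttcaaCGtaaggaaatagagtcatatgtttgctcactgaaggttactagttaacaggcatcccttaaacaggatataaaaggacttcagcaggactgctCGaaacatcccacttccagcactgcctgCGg
The Egr4 window holds 30 CG dinucleotides, the Tmem196 window 13, the Aldoa window 24 and the Afp window 3. The Aldoa window is thus nearer to Egr4 than Tmem196 is, and it carried no Suz12 region.

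The 4 untreated lists were of unequal length. They held 5795 and 6886 peaks at DRB 0 h (replicates 1 and 2) and 5116 and 6728 peaks at triptolide 0 h. The mean was 6340.5 ± 771 (SD, n = 2) at DRB 0 h and 5922 ± 1140 (SD, n = 2) at triptolide 0 h. The difference between the groups, 418.5 peaks, was smaller than the difference between the replicates of either group. In an exact permutation test it had a two-sided p of 0.667, and the smallest p that 2 lists against 2 can give is 0.333. The sign of that difference is not fixed by these lists: it was -731 peaks when peaks of at least the median width alone were counted, -127 without DRB 0 h replicate 2 and -387.5 without triptolide 0 h replicate 1, against 964 without DRB 0 h replicate 1 and 1224.5 without triptolide 0 h replicate 2. The shortest list, triptolide 0 h replicate 1, had the widest peaks, with a median of 1773 bp against 1210, 1291 and 1458 bp in the others. The lists covered 8.72 and 11.7 Mb at DRB 0 h and 11.5 and 12.6 Mb at triptolide 0 h.

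A common set made up most of the landscape. Of the 7004 regions, 4482 (64.0%) held a peak of all 4 lists, 858 of 3 lists, 768 of 2 lists and 896 of 1 list. The shared regions were the wide ones: the median width was 2055.5 bp with 4 lists, 1137 bp with 3, 926 bp with 2 and 736.5 bp with 1. Peaks missing from some lists did not sort by experiment. Only 43 regions were held by both DRB 0 h lists and no other, and 23 by both triptolide 0 h lists and no other, whereas 622 were held by replicate 2 of each experiment and by neither replicate 1. Replicate 2 of each experiment also had the longer list, and the part of list length in this pattern was not tested.

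The strength of a region was measured as its count density. This is the mean over the 4 untreated libraries of counts per 1000000 (CPM) per kb of the widest peak in the region, where the total is the reads counted over the baseline regions after scaling by TMM (trimmed mean of M-values). Those reads numbered 1199958 and 3937709 in the DRB 0 h libraries (indexes ATCACG and TGACCA) and 3312078 and 2788790 in the triptolide 0 h libraries. The index ATCACG library was the shallowest, and the index TGACCA library of DRB 0 h was the only one of the 4 on sequencing lane 4 rather than lane 1. The deposited names do not say which DRB 0 h column is replicate 1. A lower value in bulk chromatin can mean fewer cells with Suz12 at a region or less Suz12 per cell, which cannot be told apart. Density ran from 14.002 to 400.0 CPM per kb, with a median of 46.0 and an upper decile of 101. The densest decile, 700 regions, held 38.8% of the counted reads on 22.5% of the length of all regions.

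Density and sharing between lists went together. The median density was 27.9 CPM per kb for regions of 1 list, 31.3 for 2 lists, 35.5 for 3 lists and 62.5 for 4 lists. By deciles of density, 0% of the lowest decile was held by all 4 lists, 43.3% of the decile ranked 4 from the bottom, 79.7% of the next and 97.1% of the one above it. Each of the 4 highest deciles was above 99% (99.6% to 99.9%). Peak calling and counting used the same reads, so this relation describes the lists and is not independent evidence of binding. The share of regions with a protein-coding gene end within 1 kb also rose, from 50.7% in the lowest decile to 84.6% in the densest.

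**Figure D1:**
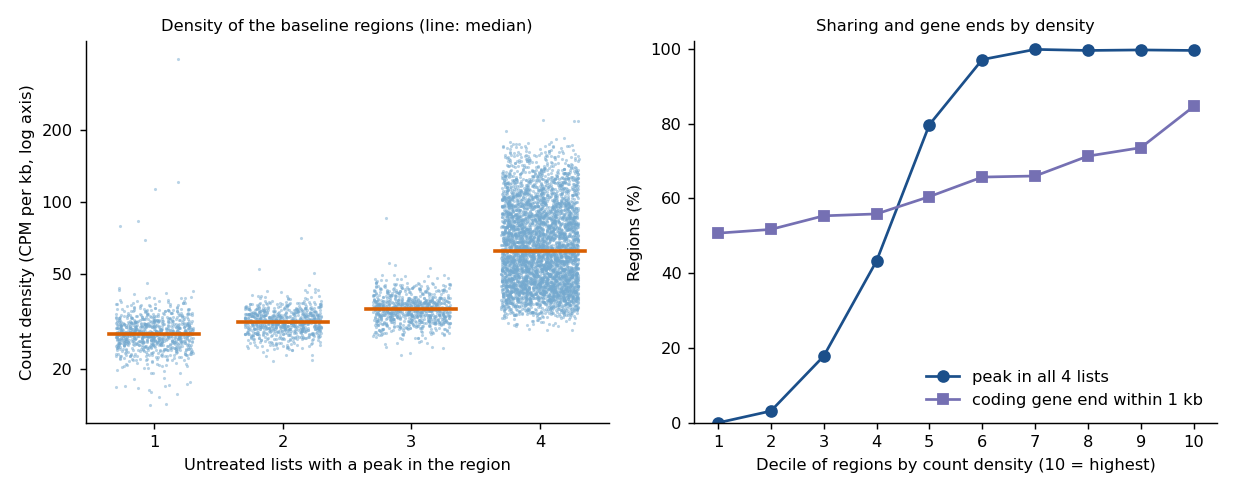
Left, count density (CPM per kb, log axis) of each baseline region by the number of untreated lists with a peak in it; points are regions and lines are medians. Right, by decile of density, the percentage of regions held by all 4 lists and with a protein-coding gene end within 1 kb. The medians rise from 27.9 for 1 list to 62.5 for 4 lists, and sharing climbs from 0% to above 99% while gene ends climb from 50.7% to 84.6%.

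Among regions held by all 4 lists, the densest lay at Sowaha, a gene of ankyrin-repeat protein (chr11:53477798-53480613, 222 CPM per kb). Its scaled counts were 682 and 580 CPM at DRB 0 h (index ATCACG, then TGACCA, the order used throughout) and 537 and 680 CPM at triptolide 0 h (replicates 1 and 2). The ranges of the groups overlapped. The next were a region inside Bcl11b, a zinc-finger factor of T cells and neurons (chr12:107914987-107917991, 4584 bp from the nearest end of the gene, 219.9 CPM per kb), and a region inside Skor2, a corepressor of cerebellar Purkinje cells (chr18:76857992-76861326, 11259 bp from the nearest gene end, 219 CPM per kb). At Bcl11b the libraries read 629 and 599.7 CPM at DRB 0 h and 596 and 678 CPM at triptolide 0 h, and at Skor2 769 and 690.5 CPM at DRB 0 h and 662 and 796 CPM at triptolide 0 h. Both lie within the span of a gene but away from its ends. Exon positions were not used here.

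The other 9 of the 12 densest shared regions lay at a gene start, and 5 of those 9 genes encode transcription factors or zinc-finger regulators. Egr4 followed at 198 CPM per kb (706 and 565 CPM at DRB 0 h, 593 and 696 CPM at triptolide 0 h). The homeobox gene Nkx2-4 had 186, the thyroid forkhead gene Foxe1 178.5, and the zinc-finger genes Sp9 and Zfp703 178 and 176 CPM per kb. Itpripl2 had 185, the sulfotransferase gene Chst2 178 and Trank1 175 CPM per kb. In all 12 the ranges of the 2 untreated groups overlapped, and the largest difference was 0.12 ± 0.13 (SE) on the log2 scale, at Trank1.

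Width rose with density, from a median of 797.5 bp in the lowest decile to 3601 bp in the densest, but the widest regions were not the densest. The widest, 32244 bp at chr11:96275107-96307350, spans the starts of Hoxb3, Hoxb5, Hoxb6, Hoxb7, Hoxb8 and Hoxb9, which specify position along the body axis. It ranked 1259th by density with 83.2 CPM per kb. Next in width came the region at Cbx8, a chromodomain subunit of PRC1 (26513 bp, 104 CPM per kb), then those at Lmx1b, a LIM homeobox gene of limb and midbrain (19125 bp, 121), Pax7, of muscle stem cells (17928 bp, 108), and Six3, of the forebrain and eye (17300 bp, 122). The libraries read 2433 and 2271 CPM at DRB 0 h and 2413 and 2269 CPM at triptolide 0 h over the Hoxb region, and 2704 and 2718 CPM at DRB 0 h and 2767 and 2821 CPM at triptolide 0 h over the Cbx8 region. With this many reads the libraries stayed close together: the difference between the untreated groups was 0.01 ± 0.09 (SE) at Hoxb and -0.04 ± 0.08 (SE) at Cbx8 on the log2 scale.

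Regions near the middle of the shared set show what an ordinary target looked like. The 4 nearest to its median density of 62.5 CPM per kb lay at Setd7, a lysine methyltransferase, at the shared start of the GABA receptor genes Gabra4 and Gabrb1, at B4galnt2, a glycosyltransferase, and at Ddah1, an enzyme of arginine metabolism. Gabra4 and Gabrb1 had 119.6 and 123 CPM at DRB 0 h and 139 and 147 CPM at triptolide 0 h, and Ddah1 had 114 and 67.4 CPM at DRB 0 h and 71.9 and 91.2 CPM at triptolide 0 h. At Ddah1 the replicates of DRB 0 h lay further apart than the groups did. Shared regions without a named coding gene at the start were passed over for the lowest densities. Those lowest among the rest were at Tmem196 (29.2), the choline transporter gene Slc5a7 (29.2), Snai2, a repressor in neural crest (30.1), and the tumor necrosis factor receptor gene Tnfrsf1b (30.2 CPM per kb). Tmem196 read 33.3 and 28.6 CPM at DRB 0 h and 34.6 and 30.3 CPM at triptolide 0 h.

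The highest density of all, 400.0 CPM per kb, belonged to a region that only 1 list called. It lies at chr17:39842892-39848937, over the ribosomal RNA pseudogene Rn18s-rs5 and the noncoding gene AY036118, far from coding genes. It read 3414 and 1708 CPM at DRB 0 h and 2022 and 2529 CPM at triptolide 0 h. Ribosomal RNA genes are repeated many times in the genome, and reads of near-identical copies cannot be told apart here, so this value is uncertain as a local level.

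At gene starts, 4442 of 21631 protein-coding genes (20.5%) had a baseline region within 1 kb. The share differed between chromosomes. On chromosome 18 no start sites were used and either end of a gene counted. The share was highest on chromosomes 18 (31.5%) and 12 (30.6%; 30.5% with either end) and lowest on X, where 96 of 966 genes (9.94%) had a region; chromosome 7 was lowest among autosomes with 13.4%. The median density on X was 40.4 CPM per kb, and on autosomes it lay between 43.9 and 49.1. Counts were not adjusted for the number of copies of each chromosome, which the labels do not give. Conversely, 4526 regions (64.6%) had a coding gene start within 1 kb and 2478 had none. Of these 2478, 1464 overlapped the body of a coding gene and 407 lay within 1 kb of an end of an annotated long noncoding RNA gene. Their median density was 39.6 CPM per kb, below that of all regions.

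Every gene on the Hox list and on the list of other homeobox regulators had a region. Both lists were chosen with earlier results of these data known. In the Hox clusters 39 of 39 genes had a region, all of them in the shared set, with a median over the 41 regions of 80.8 CPM per kb, 1.76 times the median of all regions. Of the 84 other homeobox regulators on the list, 84 had a region, with a median of 112 CPM per kb, and 57 of their 96 regions fell in the densest decile of all regions. The Hox regions were long (median 5014 bp), and 8 of 41 were in the densest decile, which holds 700 of all 7004 regions. Hoxd11 was the densest Hox gene at 123 CPM per kb, followed by Hoxd9 at 119 and the region shared by Hoxa9 and Hoxa10 at 112. Outside the clusters Pou3f3, a neural POU factor, led with 173, then Tlx2, of the enteric nervous system, with 171 and Nkx2-1, of thyroid, lung and forebrain, with 164 CPM per kb. Pou3f3 read 1262 and 1087 CPM at DRB 0 h and 1010 and 1231 CPM at triptolide 0 h, so its groups overlapped.

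Other transcription factor families were covered in part. Pax genes had a region in 8 of 9 (Pax4, of the endocrine pancreas, had none), T-box genes in 11 of 16, forkhead genes in 29 of 41, Gata genes in 4 of 6, Sox genes in 15 of 19 and lineage bHLH genes in 31 of 39. The median density was 105 CPM per kb for Pax, 80.4 for T-box, 109 for forkhead, 122 for Gata, 101 for Sox and 110.2 for bHLH regions. The densest were Pax5, Pax2 and Pax7 (124, 114 and 108 CPM per kb), Tbx1, Tbx18 and Tbx2 (158, 157 and 119.6), Foxe1, Foxd1 and Foxc1 (178.5, 173 and 173), Gata6, Gata2 and Gata5 (134, 133 and 112), Sox18, Sox21 and Sox17 (169, 156 and 146) and Bhlhe23, Ptf1a and Neurod2 (166, 164 and 157). Gata6, the endoderm regulator, read 1210 and 1104 CPM at DRB 0 h and 1145 and 1296 CPM at triptolide 0 h. Ptf1a, of the exocrine pancreas, read 555 and 527 CPM at DRB 0 h and 535 and 630.1 CPM at triptolide 0 h. Members without a region were, among others, Sox2 and the forkhead genes Foxk1, Foxk2, Foxm1, Foxo4 and Foxp3. These were picked for mention after their values were seen. Of the muscle regulators on the bHLH list, Myod1 had a region in all 4 lists (75.7 CPM per kb), and Myf5, Myf6 and Myog had none.

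Signalling ligand genes were also covered. Of the Wnt ligand genes, 18 of 19 had a region, all but Wnt8b, with a median of 96.0 CPM per kb. Wnt1, Wnt7b and Wnt3a were the densest (154, 149 and 119). Wnt1, which patterns the midbrain, read 835 and 812 CPM at DRB 0 h and 862 and 924 CPM at triptolide 0 h. BMP, GDF and hedgehog ligand genes had a region in 16 of 25, with a median of 97.3 CPM per kb, led by Bmp6 (171), Ihh (151) and Bmp2 (140.1). The hedgehog ligand gene Shh had 129.6 CPM per kb over 10.7 kb (chr5:28457579-28468289).

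Genes of neuronal excitability, which are not regulators of cell fate, were also frequent targets. Potassium and calcium channel subunits had a region in 40 of 45 genes, every one of them in the shared set, with a median of 77.2 CPM per kb. Kcnk9, Kcnc4 and Kcnk13 led with 152, 137 and 129.7. Receptors for GABA, glutamate and acetylcholine had a region in 34 of 42 genes, at a lower median of 64.4 CPM per kb, led by Grin2a (139), Grm4 (126) and Grin3a (121). Kcnk9, a background potassium channel, read 817 and 697 CPM at DRB 0 h and 729.5 and 806 CPM at triptolide 0 h. In the densest decile, which holds 700 of all 7004 regions, were 5 of the 34 receptor regions and 14 of the 42 channel regions.

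Cell cycle inhibitors and Polycomb genes were mixed. Among inhibitors of cyclin-dependent kinases, 5 of 8 genes had a region, with Cdkn1c at 151, Cdkn2a at 100.4 and Cdkn2c at 81.7 CPM per kb, while Cdkn1b, Cdkn2d and Cdkn3 had none. Of 12 genes for PRC2 subunits and partners, Phf19, a Tudor-domain partner, alone had a region (56.1 CPM per kb); Suz12 and Ezh2 themselves had none. Of 19 PRC1 genes 8 had a region, with a median of 43.1 CPM per kb over 11 regions, of which 7 were held by all 4 lists. Among them were Pcgf5 (107), Cbx8 (104) and Bmi1 (92.6 CPM per kb). Pcgf5 read 319 and 266 CPM at DRB 0 h and 251 and 279 CPM at triptolide 0 h. Ring1 and Rnf2, the catalytic subunits of PRC1, had none.

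Pluripotency, housekeeping and tissue-restricted genes were mostly free of regions. Of 32 pluripotency genes, 3 had one: Esrrb, a nuclear receptor (103 CPM per kb), Prdm14 (46.6) and Tbx3 (46.6). Esrrb read 310.03 and 308 CPM at DRB 0 h and 308 and 328 CPM at triptolide 0 h. Of 30 housekeeping genes, B2m (34.5) and Gusb (33.0 CPM per kb) had a region. Of 30 genes restricted to differentiated tissues, 4 had one, with Sftpc, of lung surfactant, at 69.3, Cd4 at 31.6, Gfap at 30.9 and Trf at 28.8 CPM per kb. The region at Sftpc is also the region of Bmp1, on the BMP list (chr14:70518245-70521902). Of these 4 regions, 1 was held by all 4 lists. These 3 lists lie below the 20.5% of all coding genes: 9.38%, 6.67% and 13.3% of their members had a region. Pou5f1 and Nanog, which define the pluripotent state, had none. Expression was not measured in these files, so the cell type rests on the labels.

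**Figure D2:**
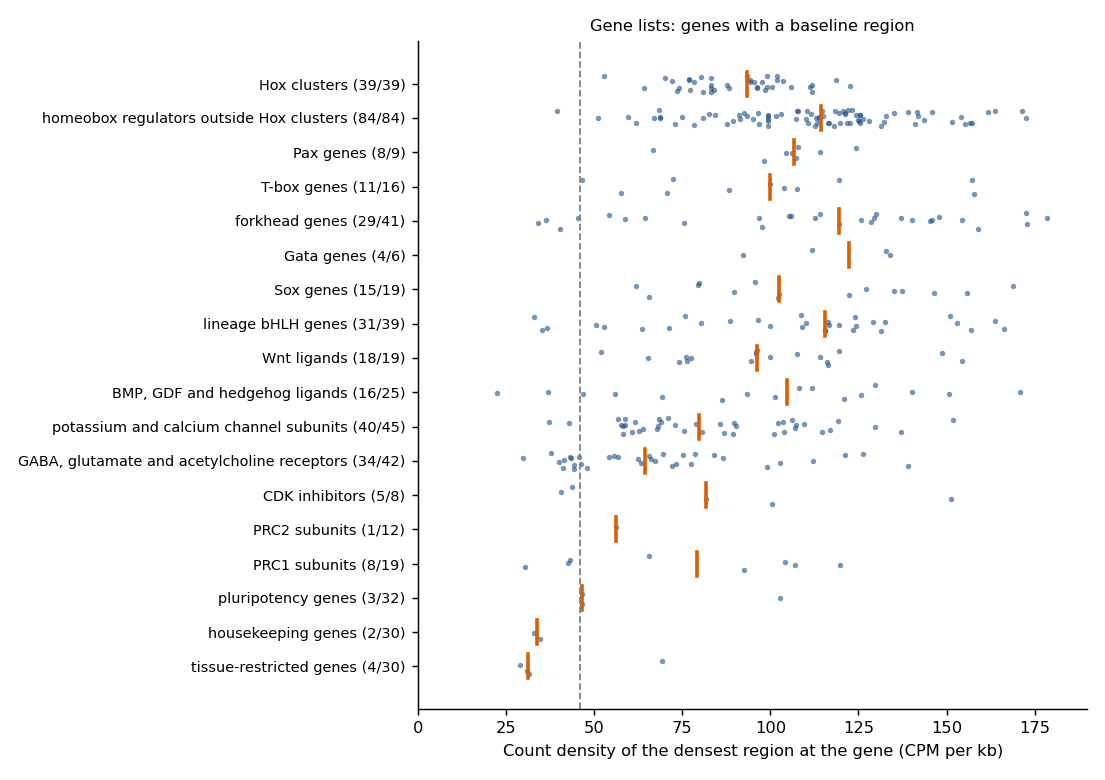
Each point is a gene with a baseline region at its start, placed by the count density (CPM per kb) of its densest region. Orange bars are medians over these genes, the dashed line is the median of all 7004 regions (46.0), and brackets give genes with a region out of genes on the list. Developmental regulators fill the right of the plot, and the pluripotency, housekeeping and tissue-restricted lists have 3, 2 and 4 points.

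CG content differed between start sites with and without Suz12, and little between strong and weak targets. The comparison used 21045 annotated start sites with a promoter sequence, of 17274 genes (81.8% of the 21120 genes on X and the autosomes other than 18). Among start sites with 0 to 4 CG dinucleotides in the 300 bases, 2.5% of 5838 had a baseline region. The share was 12.8% with 5 to 9, 23.3% with 10 to 14, 24.5% with 15 to 19, 25.1% with 20 to 24, 27.2% with 25 to 29 and 35.2% of 3283 with 30 or more. Where a region was present, its median density hardly moved: it was 48.3 CPM per kb in the class with fewest CG dinucleotides and 52.6 in the class with most, with all classes between 48.1 and 52.6. The median CG count was 22 at start sites with a region, 23 at those with a region in the densest decile, 24 at those with one in the lowest decile and 10 at start sites without a region. No test was made, because start sites of neighbouring genes share regions.

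Most CG-rich start sites carried no region. A window was called CpG-rich when its GC content was above 50% and its CG count above 0.6 of that expected from its base composition. By this rule 9547 of 21045 start sites (45.4%) were CpG-rich, and 27.6% of them had a region, against 10.98% of the others. Of the start sites of housekeeping genes, 25 of 30 were CpG-rich and 2 of 30 had a region. Of those of PRC2 genes, 12 of 15 were CpG-rich and 1 had a region. The homeobox list had a smaller CpG-rich share, 44 of 71 start sites, and a region at 71 of 71. The Aldoa promoter printed above is of the first kind and the Egr4 promoter shows both a CG-rich window and a dense region.

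**Figure D3:**
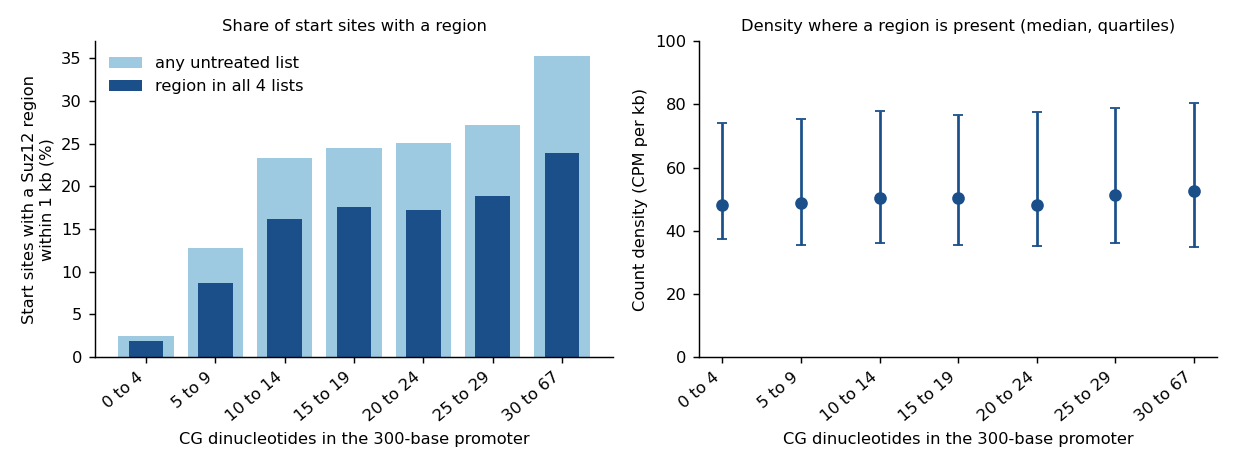
Left, the percentage of start sites with a baseline region within 1 kb (light bars) and with a region held by all 4 lists (dark bars), by the number of CG dinucleotides in the 300-base promoter. Right, the median and quartiles of count density where a region was present. The share rises from 2.5% to 35.2% and the median density stays between 48.1 and 52.6 CPM per kb.

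Baseline regions also held microRNA hairpins, some of them within the developmental clusters. Of 963 hairpins in the RefSeq table, 45 (4.67%) lay wholly inside a baseline region, 35 of them in regions held by all 4 lists. MicroRNAs are short RNAs that repress messenger RNAs matched by their seed, bases 2 to 8. The families with more than 1 hairpin in a region are shown because their members sit in separate regions, apart from miR-34b and miR-34c, which share one. The seed is in capitals. For miR-34b and miR-34c it is the seed of the 3p arm, and the 5p arm of miR-34b has a different one.
mmu-miR-196b-5p: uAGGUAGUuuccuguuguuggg
mmu-miR-196a-5p: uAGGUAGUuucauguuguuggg
mmu-miR-10a-5p: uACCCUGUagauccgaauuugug
mmu-miR-10b-5p: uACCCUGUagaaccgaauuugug
mmu-miR-9-5p: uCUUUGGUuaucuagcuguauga
mmu-miR-34b-3p: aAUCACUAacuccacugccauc
mmu-miR-34c-3p: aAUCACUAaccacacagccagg
The miR-196 and miR-10 genes lie in Hox clusters. Mir196b, between Hoxa9 and Hoxa10 (chr6:52230129-52230150 for the mature arm), was in a region of 112 CPM per kb and Mir196a-2, in the Hoxc cluster, in one of 94.2, both held by 4 lists. Mir196a-1, in the Hoxb cluster, was in a region of 29.1 CPM per kb held by 3 lists. Mir10a and Mir10b were in regions of 78.3 and 64.1 CPM per kb. Mir9-1 and Mir9-3, which give the neural miR-9, were in regions of 122 and 97.1 CPM per kb with no coding gene start, and Mir34b with Mir34c in one of 54.3. Reads over a region do not say whether Suz12 was bound at the hairpin or at a neighbouring start.

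No baseline region differed between the 2 untreated groups at an adjusted p under 0.05. edgeR's quasi-likelihood test with Benjamini-Hochberg adjustment called 0 of 7004 regions (0%), and 193 (2.76%) had an unadjusted p under 0.05. DESeq2 also called 0 and found 87 at an unadjusted p under 0.05. The median size of the log2 difference was 0.12, a 1.08-fold change, with a median SE of 0.19. It was 1.5-fold or more in 124 regions and 2-fold or more in 18. The groups did not overlap in 2179 regions (31.1%), 1079 with DRB 0 h higher and 1100 with it lower. Such separation is common with 2 libraries against 2. If the libraries were interchangeable, a share of 0.333 of regions would be expected to separate, so the count is not a sign of a difference.

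The size of this null difference depended on density. The median size of the log2 difference fell from 0.25 in the lowest decile of density to 0.06 in the densest, and the median SE from 0.30 to 0.12. The reads per region rose over the same deciles, from a median of 59.6 per library to 1236. The libraries of a group were no more alike than libraries of different groups. The median size of the log2 ratio of CPM was 0.21 between the DRB 0 h libraries and 0.16 between the triptolide 0 h libraries, and the 4 pairs across the groups had 0.24, 0.19, 0.14 and 0.14. Across the 7004 regions, Pearson's r of log2 density was between 0.84 and 0.94 for the 6 pairs, which share their regions, and the 3 lowest values (0.84, 0.87 and 0.88) were the pairs with the shallow index ATCACG library. Replicates differed by more than sampling of reads gives: chi-square divided by its degrees of freedom was 3.96 for the DRB 0 h pair and 4.02 for the triptolide 0 h pair.

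The calls changed when some libraries were left out. The count of calls was 0 without either triptolide 0 h library, 2 without the DRB 0 h index ATCACG library and 25 without the DRB 0 h index TGACCA library, a fit in which the shallow library stands alone for DRB 0 h and is assumed to vary like the others. The median size of the log2 difference was 0.20 in that fit and between 0.11 and 0.16 without any other library. Of the 25 calls, 21 were higher at DRB 0 h and 14 were regions held by 1 list. In the 18 regions with a 2-fold difference in the full fit, 17 were held by 1 list, 16 were higher at DRB 0 h and the index ATCACG library was the highest of the 4 in 16. Their median width was 454.5 bp against 1527.5 bp for all regions. That library was the shallowest of the 4, and the part of depth in these narrow regions was not tested. A region held by 1 list entered the set only through the call of that list. A high value in 1 library at such regions is therefore not independent of how they were chosen.

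**Figure D4:**
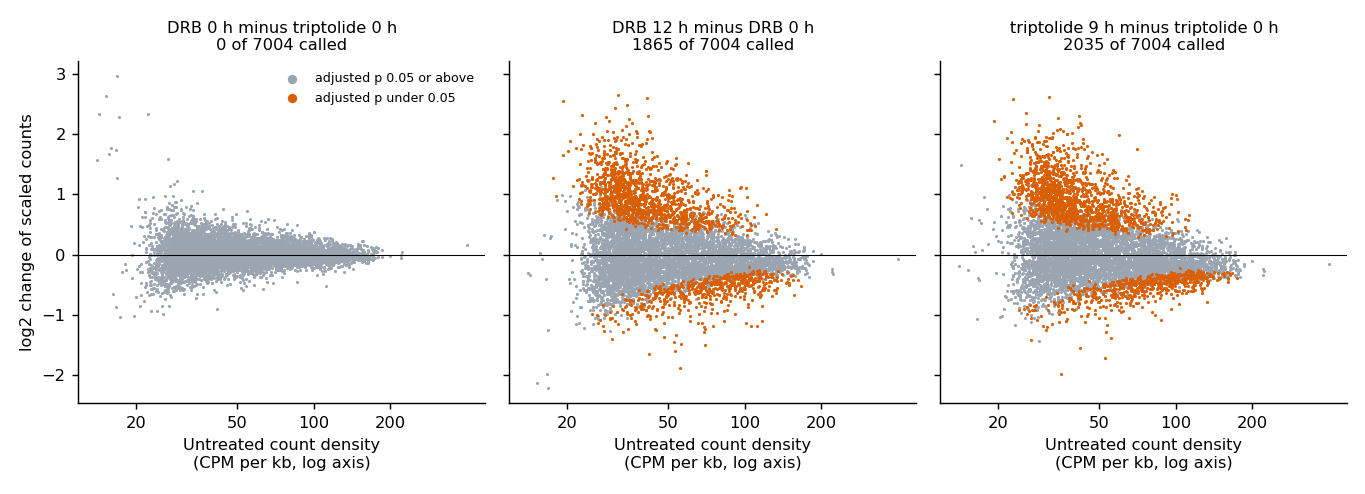
Log2 change of scaled counts against untreated count density (CPM per kb, log axis) for the 7004 baseline regions: between the untreated groups (left), after DRB (middle) and after triptolide (right). Points are regions, orange where the adjusted p is under 0.05, and 0, 1865 and 2035 were called. All regions were chosen by peaks of the 0 h lists, and the density uses untreated libraries that also enter the changes.

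The regions of lowest p are named by rule, as a description of what an uncalled difference looked like. For all of them edgeR's adjusted p was 0.9997. On the side of DRB 0 h the lowest p was at Zic5, a zinc-finger gene of the neural plate (chr14:122462594-122465977), with 198 and 258 CPM at DRB 0 h and 121 and 161 CPM at triptolide 0 h. The groups did not overlap, and the difference was 0.72 ± 0.17 (SE) on the log2 scale with an unadjusted p of 0.000787. Galnt7, a glycosyltransferase gene, read 140.07 and 138 CPM at DRB 0 h against 86.1 and 99.97 CPM, and Pbx3, a Hox cofactor, 219.5 and 177 CPM against 115 and 146 CPM. Zfp282, Chd7, the chromatin remodeller of CHARGE syndrome, and a region without a gene start at chr19:44725739-44726634 followed, with log2 differences of 0.95, 0.65 and 1.05. Zfp282 and this last region were low, at 57.2 CPM or less in every library.

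On the side of triptolide 0 h, 2 of the 6 regions of lowest p lay at the Otx2 locus, which encodes a homeobox factor of forebrain and epiblast. One, over the noncoding gene Otx2os1 (chr14:48672584-48675138), read 123 and 133 CPM at DRB 0 h and 190.1 and 191 CPM at triptolide 0 h. The other, near an alternative start of Otx2 (chr14:48661676-48662828), read 40.1 and 28.1 CPM against 62.1 and 58.7 CPM, a log2 difference of -0.90 ± 0.22 (SE). Another region lies between them, over Otx2 itself (chr14:48664443-48670550), and was examined after these values were seen. It read 389 and 352 CPM against 474 and 456 CPM, with an unadjusted p of 0.00952. All 3 regions of the locus were thus higher in both triptolide 0 h libraries than in both DRB 0 h libraries, and neighbouring regions are not independent. The first 2 were chosen for a low p in this direction, and 1100 of all 7004 regions were apart in the same direction. Fzd7, a Wnt receptor gene, read 79.4 and 78.1 CPM at DRB 0 h and 117 and 124 CPM at triptolide 0 h (-0.62 ± 0.16, SE).

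The other 3 regions on that side had no coding gene start within 1 kb. One lies inside Myo18a (chr11:77858903-77860653) with 45.3 and 45.5 CPM against 77.5 and 71.9 CPM. A pair on chromosome 2 (chr2:116555114-116557889 and chr2:116558330-116562245) lies 316448 bp or more from the nearest coding gene end and was held by 2 lists. Around Zic5, looked at after its value was seen, 7 regions lie within 30 kb of the gene. The region over the start of its neighbour Zic2 (chr14:122472083-122479415) read 386 and 536 CPM at DRB 0 h and 359 and 369.6 CPM at triptolide 0 h, with an unadjusted p of 0.0232. The region next to it, which also reaches a start of Zic2 (chr14:122480956-122486363), overlapped between the groups. Without the DRB 0 h index ATCACG library, Zic5 and Grhl2, an epithelial transcription factor gene, were the 2 calls, with log2 differences of 0.88 and -0.80 and edgeR adjusted p of 0.0275 and 0.0280. In that fit 1 library stands for DRB 0 h and is assumed to vary like the others. At Grhl2 the library left out read 283 CPM, within the 263 to 289 CPM of triptolide 0 h, and the remaining DRB 0 h library read 158 CPM.

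**Figure D5:**
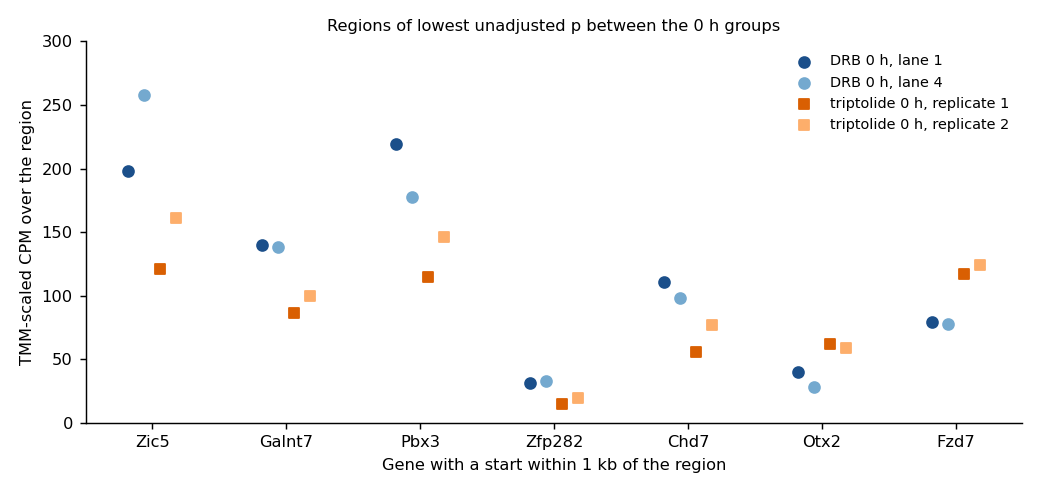
TMM-scaled CPM in each of the 4 untreated libraries for the named genes with the lowest unadjusted p between the groups; circles are DRB 0 h, squares triptolide 0 h. The groups are apart in all 7 genes shown, which were chosen for this, and none passed an adjusted p of 0.05.

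Since 0 of 7004 regions were called between the untreated groups, none of the 18 gene lists could hold a call. The median log2 difference was -0.02 in Hox regions, -0.01 in the other homeobox regions and 0.00 in Wnt regions, against 0.01 over all regions. The median size was 0.06, 0.06 and 0.04, against 0.12 over all regions, in lists whose regions are denser than most. In the pluripotency list the median was -0.30 over 5 regions, of which 2 had an unadjusted p under 0.05 in edgeR, against 193 of all 7004 regions (2.76%). Other lists held such regions too: 3 of 96 homeobox regions outside the Hox clusters, 3 of 34 receptor regions and 2 of 19 Wnt regions. The Hox list held 0 of 41. The 5 pluripotency regions belong to 3 genes, and 3 of the 5 are at Tbx3. At Esrrb, the densest, the difference was -0.04 ± 0.11 (SE). Prdm14 read 144 and 169.8 CPM at DRB 0 h and 190.1 and 201 CPM at triptolide 0 h, and the densest region at Tbx3 read 159 and 159.9 CPM against 188 and 262 CPM. Both had an adjusted p of 0.9997 in edgeR.

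The drug comparisons at the same 7004 regions are set beside the null difference. In a fit of 8 libraries, edgeR called 1865 regions (26.6%) between DRB 12 h and DRB 0 h, 1290 higher (18.4%) and 575 lower (8.21%). It called 2035 (29.1%) between triptolide 9 h and triptolide 0 h, 1399 higher (20%) and 636 lower (9.08%). The same fit called 0 between the untreated groups, with 148 at an unadjusted p under 0.05. The median size of the log2 change was 0.34 for DRB and 0.33 for triptolide, against 0.12 between the untreated groups, and 615 and 613 regions changed 2-fold or more, against 18. The direction of the calls differed with density. In the lowest decile, 178 of 186 DRB calls and 184 of 199 triptolide calls were higher. In the densest decile, 15 of 132 and 8 of 163 were higher. Density uses untreated libraries that also enter these changes, so the split by density is not independent of them. Each drug comparison shares its 0 h libraries with the null comparison, so the values are only set side by side. The regions were chosen by peaks of the 0 h lists, thus through both groups of the null comparison but not through the treated groups. The 5115 regions without an untreated peak are not in these counts. The counts and their splits are therefore not on an equal footing with the null comparison. The changes are relative within the baseline regions, since TMM scaling sets the balance of all regions to 0.

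The drug counts moved with single libraries. For DRB the count was 663 without the DRB 0 h index TGACCA library, 1295 without DRB 0 h index ATCACG, 1541 without DRB 12 h index ATCACG and 2654 without DRB 12 h index TGACCA. For triptolide it was 759 and 1132 without 0 h replicates 1 and 2, and 923 and 762 without 9 h replicates 1 and 2. Within the 4482 regions held by all 4 untreated lists, 1072 were called for DRB and 1148 for triptolide.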

How the data were processed

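The members, gene lists and tests were chosen with earlier results of these data known. Suz12 ChIP-seq of 8 libraries was used, 2 per group. Per the submitters' processing notes, the tools include Bowtie and MACS and the build is mm10 (GRCm38); their versions and settings were not stated there. The authors deposited a peak list per sample with read counts of 13 libraries over each peak; 5 count columns, of other times and input chromatin, were not used, and no input was subtracted. The labels give the unit no further, and the values are whole numbers, taken as counts that the authors left unnormalized. Counts over the widest peak of each merged region were scaled by TMM and tested without a filter in edgeR 4.0.16 (R 4.3.3), with DESeq2 1.42.0 as an alternative; the test was checked on simulated data. Intervals were read as 0-based and are printed 1-based. The DRB columns carry an index and no replicate number. A gene belonged to a region when its annotated start (RefSeq, GRCm38.p6), or either end for the 4357 genes without a start site, lay within 1 kb. All 515 entries of the 18 gene lists matched the annotation. Genes were named by rule: at the 12 densest shared regions, the 5 widest, the 4 nearest the median and 4 lowest in density, the 6 lowest p in each direction, and the 3 densest of each list. Some genes that this rule names are not reported here. Reads over the regions, 1199958 to 3937709 per library, set the precision. Alternatives were other scalings, a mean count of at least 50, other merging rules, other windows and leaving out each library.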

Additional observations from a re-analysis of the deposited data

How the results depend on the processing

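Of 29 alternatives other than leaving out a library or list, 22 kept the direction, the side of the threshold or the value within its spread. Of the 4482 regions held by all 4 lists, 1072 were called for DRB and 1148 for triptolide, against 1865 and 2035 of all 7004 regions. Fewer regions were tested, and the cause of the change was not tested. The share of the densest decile with a gene end within 1 kb was 83.1% when regions were ranked by total count and 88% with a window of 2.5 kb, against 84.6%. The difference in peaks per list was -731 for peaks of at least the median width; the cause was not tested. With 1 library or list left out, calls between the untreated groups ranged from 0 to 25, the median size of their log2 difference from 0.114 to 0.201, DRB calls from 663 to 2654, triptolide calls from 759 to 1132, and the difference in peaks from -387.5 to 1224.5; here too the cause was not tested. When 1 list was left out, the share of regions held by all 3 remaining lists ranged from 67.6% to 70.9%, and the Hox ratio from 1.74 to 1.79. With the replicate block, the difference in peaks was 418.5 (exact permutation p = 0.5, over 4 arrangements); nothing in the labels says that equal numbers pair the lists. A replicate block added after seeing the data, by number for triptolide and by index for DRB, gave 3645 calls for DRB (55.4% higher, against 69.2% of 1865 without it) and 3902 for triptolide (56.1% higher, against 68.7% of 2035), with 2 pairs in each. Differences between replicates at 0 h and after the drug correlated across regions (r = 0.54 for DRB and 0.46 for triptolide), a hint from the data that the design does not state. No paired analysis of the counts was possible between the untreated groups because the DRB columns carry no replicate number.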

Other observations

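Dense regions that a single list called stood apart from the rest of the landscape; they were picked after their values were seen. Of the 896 regions held by 1 list, 6 were denser than the median of the regions held by 4 lists, and all 6 came from the list of DRB 0 h replicate 1. They include the ribosomal RNA locus described above and a region at Duxf3, a member of the repeated Dux genes of early embryonic genome activation (chr10:58231611-58232319, 69.5 CPM per kb), where reads of near-identical copies cannot be told apart. Others lie inside Cdk8, a Mediator kinase gene (chr5:146260896-146261447, 121 CPM per kb), and over Cmss1 and Filip1l (chr16:57391319-57391958, 79.4 CPM per kb). The region inside Cdk8 read 97.4 and 48.2 CPM at DRB 0 h and 56.5 and 65.7 CPM at triptolide 0 h, and the DRB 0 h index ATCACG library was the highest of the 4 there.

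Among all 92 regions held by the list of DRB 0 h replicate 1 alone, the index ATCACG library was the highest in 89. The deposited names do not tie this list to a column, and these values were not used to do so. The regions entered the set only through the call of that list, so a high value in 1 library there is not independent of that choice. One of these narrow regions lies at the replication-dependent histone genes H2ac13, H2bc13 and H3c10 (chr13:21716709-21717148) and read 19.6 and 2.24 CPM at DRB 0 h and 2.07 and 1.09 CPM at triptolide 0 h. Only the shallow library stood out at it.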
